A study of Mus musculus with 6 samples.

Results

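The complement genes described here are *C1ra*, *C1s1*, *C4b*, *C2*, *C3*, *Cfb*, *Cfd*, *Serping1* and *Cd55*, 9 of the 20327 gene symbols counted in each library. They were chosen by name, as components and regulators of the complement system, and each was compared between fibroblasts that did and did not express the *Il11* reporter in the inflamed colon of the mouse.

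Complement is a cascade of plasma and tissue proteins in which inactive proteases are cleaved in turn and mark surfaces with fragments of C3. The classical pathway runs from the C1 proteases through C4 and C2, the alternative pathway amplifies C3 cleavage through factor B and factor D, and both converge on C3 and the membrane attack complex. Host cells are shielded by soluble and membrane-bound regulators, and besides the liver, stromal and epithelial cells of mucosal tissues are known to make several of these proteins locally.

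RNA was sequenced from IL-11- cells, in which EGFP was off, and IL-11+ cells, in which it was on, of C57BL/6 mice of the genotype *Il11-Egfp*, sorted from the colon as live cells without Ter119, CD45, CD31 and EpCAM (n = 3 libraries per group, from 3 mice). In these mice *Egfp* is placed in *Il11* on a bacterial artificial chromosome, and a single transgenic line was used, so both groups carry the transgene and differ in whether the reporter was on. All mice, aged 9 to 15 weeks, had drunk 1.5% dextran sulfate sodium (DSS), which injures the colonic epithelium, for 5 days and then water, and cells were taken on day 7, with no untreated group among these libraries. Both groups are called fibroblasts, as in the study, although the gate is defined by what the cells lack and, per the methods, the sorted EGFP+ cells were not entirely pure. Libraries were made by 5′Tag-seq, which counts tags from the 5′ side of polyadenylated transcripts. The IL-11- libraries held 1057170, 1078179 and 1169817 tags and the IL-11+ libraries 1046538, 1022851 and 1049048 tags, given here and below in the order of replicates 1, 2 and 3. At these depths 3 tags, taken as the floor, stood at 2.56 to 2.93 CPM of the library total. Apart from such floors, CPM values are normalized, that is, relative to library totals adjusted by edgeR's TMM factors. Floors cover counting error only, because tags copied by PCR are not independent molecules.

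*Il11* itself, the gene whose regulatory sequence drives the reporter, had 28, 51 and 89 tags in the IL-11- libraries and 1357, 732 and 2658 tags in the IL-11+ libraries. Each IL-11+ library was far above each IL-11- library, as the labels state. The log2 fold change, here always IL-11+ over IL-11-, was 4.98 (SE 0.394, adjusted p = 1.01e-07, quasi-likelihood test of edgeR, Benjamini-Hochberg adjusted). The cells were sorted on this reporter, so the difference checks the labels only. Because *Egfp* is placed within *Il11* on the transgene, 5′ tags of the transgene transcript may be counted as *Il11*. Their part in these counts was not tested.

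The 9 genes did not move together. *Cfb* was higher in IL-11+ fibroblasts, by 2.65-fold, and was the only one of the 9 to be called, that is, to differ more than 2-fold with an adjusted p under 0.05 in edgeR's quasi-likelihood test. *Serping1* was lower in IL-11+ fibroblasts with an adjusted p under 0.05 but a fold change under 2. *C3*, *C1s1* and *C2* had lower values in each IL-11+ library than in any IL-11- library without passing this unpaired test. Once same-numbered libraries were paired, *C3* and *C1s1* reached an adjusted p of 0.00226 and 0.0279 (quasi-likelihood test of edgeR, Benjamini-Hochberg adjusted). Their fold changes stayed under 2, and *C2* stood at 0.239 in that paired edgeR test. *C1ra*, *C4b* and *Cd55* overlapped between the groups, and *Cfd* was too low to be tested.

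Of the 9 genes, 8 reached 10 tags in 3 or more of the 6 libraries and were tested among 9334 genes, and each of the 8 had at least 19 tags in every library. Of these 8, 1 was called, where 9.81% of all tested genes were called in either direction. The call was in the direction of IL-11+ fibroblasts, in which 3.44% of the tested genes were called. No member was called lower by edgeR's quasi-likelihood test, by edgeR's exact test or by DESeq2, against 6.37% of the tested genes called lower by the first of these, and 3 members were lower at an unadjusted p under 0.05, where 14.5% of the tested genes were. Without the fold-change threshold, 1 member was lower at an adjusted p under 0.05, where 8.7% of the tested genes were. In a fit blocked on the replicate number, by which the libraries pair, 3 members (*Serping1*, *C3* and *C1s1*) were, against 11.2% of the tested genes. The IL-11- libraries all lay above the IL-11+ libraries for 4 of the 8 members, and for 16.7% of the tested genes. The opposite held for 1 member and for 14.5% of the tested genes. Over the 8 members the log2 fold change had a median of -0.20, and over all tested genes of -0.012.

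**Figure D1:**
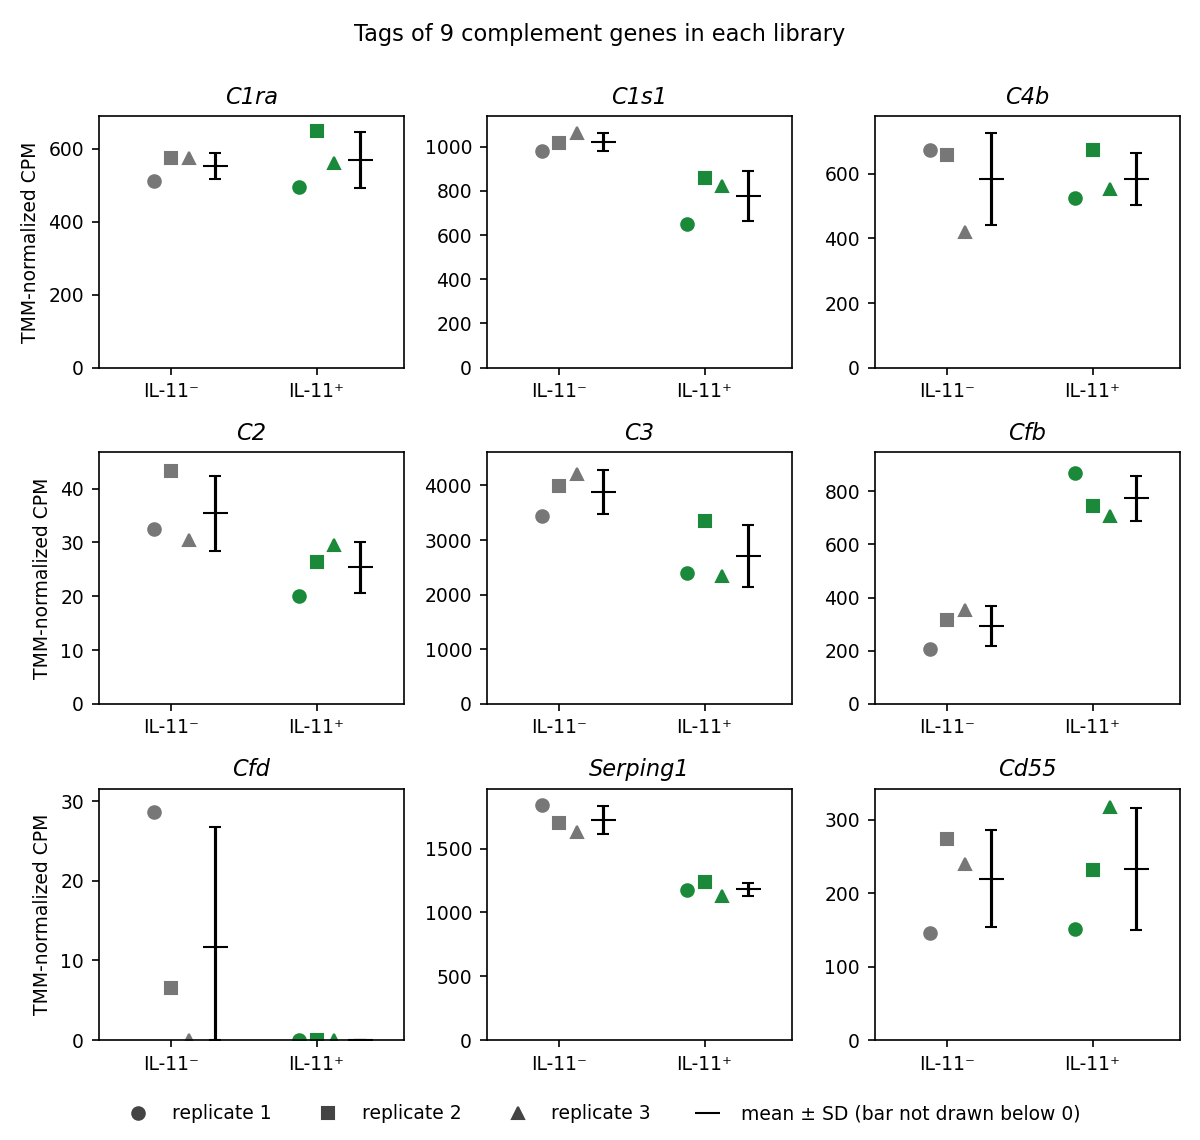
TMM-normalized CPM (tags scaled between libraries, vertical axes from 0) of each complement gene in sorted IL-11- and IL-11+ fibroblasts, with a symbol for each replicate and the mean ± SD beside it (n = 3 libraries per group; bars are not drawn below 0). *Cfb* stood higher in each IL-11+ library, *C1s1*, *C2*, *C3* and *Serping1* stood lower, and *Cfd* was at 0 in the IL-11+ libraries.

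*Cfb* encodes factor B, the protease zymogen that joins C3b to form the C3 convertase of the alternative pathway. It had 217, 335 and 430 tags in the IL-11- libraries and 819, 734 and 742 tags in the IL-11+ libraries. The lowest IL-11+ library was well above the highest IL-11- library, and the IL-11- libraries were the more scattered relative to their mean. The normalized level rose from 292.0 ± 75.8 to 773.6 ± 83.9 CPM (SD, n = 3), with a log2 fold change of 1.40 (SE 0.195, 95% interval 0.99 to 1.81, adjusted p = 4.56e-05, quasi-likelihood test of edgeR, Benjamini-Hochberg adjusted). Between libraries that carry the same replicate number, the log2 difference was 2.06 for replicate 1, 1.24 for replicate 2 and smaller still for replicate 3, so the direction was shared by each pair and the size was not. In these sorted bulk samples, more cells of a type that expresses a gene and more RNA per cell cannot be told apart, here and for the genes that follow.

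*Cfd* encodes factor D, the protease that cleaves factor B once it is bound to C3b, and is best known as adipsin of fat cells. It had 30, 7 and 0 tags in the IL-11- libraries and 0 tags in each IL-11+ library, where 0 allows up to 2.87, 2.93 and 2.86 CPM of the library total. Most of its tags came from IL-11- replicate 1, while IL-11- replicate 3 had none, like the IL-11+ libraries. *Cfd* did not reach 10 tags in 3 libraries and no fold change is given. Adipocyte genes were listed after these values were seen. *Fabp4*, its most abundant gene and a lipid carrier of adipocytes and some endothelial cells and macrophages, had 136, 56 and 29 tags in the IL-11- libraries and 8, 7 and 3 tags in the IL-11+ libraries. *Adipoq*, which encodes the adipocyte hormone adiponectin, had 2, 0 and 0 tags in the IL-11- libraries and 0 in each IL-11+ library. Of the 8 genes on the list, 3 passed the filter and 1, *Fabp4*, was called lower in IL-11+ fibroblasts. *Car3* had 7, 2 and 0 tags and *Cidec* 4, 0 and 0 tags in the IL-11- libraries, and both had 0 in each IL-11+ library. *Lipe*, a hormone-sensitive lipase, went the other way, with 29, 11 and 21 tags in the IL-11- libraries and 27, 35 and 41 tags in the IL-11+ libraries, and was not called, and *Pparg*, a regulator of adipocyte differentiation, overlapped between the groups. *Adipoq*, *Car3*, *Cidec* and *Fabp4* thus had most tags in IL-11- replicate 1, as *Cfd* did, while *Lipe* and *Pparg* did not follow this. *Adipoq* stayed under the floor of 3 tags in each library, *Cidec* had at most 4 tags, and *Fabp4* reached 10 tags only in the IL-11- libraries. With a list made after the *Cfd* values were seen, this likeness is a description and not a test. The sum of the list stood at 181.4, 82.0 and 50.9 CPM in the IL-11- libraries and at 49.8, 58.9 and 49.6 CPM in the IL-11+ libraries. The part of such cells in the *Cfd* tags was not tested.

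*C3* encodes the central component on which the pathways converge. It had 3606, 4231 and 5131 tags in the IL-11- libraries and 2267, 3304 and 2458 tags in the IL-11+ libraries. No IL-11+ library reached the lowest IL-11- library, with IL-11+ replicate 2 closest to it. The normalized level was 3881 ± 396 CPM in IL-11- and 2700.5 ± 567 CPM in IL-11+ fibroblasts (SD, n = 3). This gave a log2 fold change of -0.52 (SE 0.187, 95% interval -0.92 to -0.13), which did not pass the test (adjusted p = 0.0678, quasi-likelihood test of edgeR, Benjamini-Hochberg adjusted). In a fit blocked on the replicate number the log2 fold change was -0.54 and the adjusted p 0.00226 by the same edgeR test, still under the fold-change threshold. Scaling by library size only gave an adjusted p of 0.0238 (quasi-likelihood test of edgeR, Benjamini-Hochberg adjusted), and leaving out IL-11+ replicate 2 gave 0.0422. Leaving out any other library gave an adjusted p of 0.0872 to 0.22 in the same edgeR test. *Cfb* and *C3*, which encode partners in the same convertase, therefore had fold changes of opposite sign.

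*C1ra* and *C1s1* encode C1r and C1s, the proteases of the first component that cleave C4 and C2 once C1q has bound its target. *C1s1* had 1028, 1077 and 1294 tags in the IL-11- libraries and 612, 846 and 862 tags in the IL-11+ libraries. The groups did not overlap, and IL-11+ replicate 1 was the lowest. The log2 fold change was -0.39 (SE 0.167, 95% interval -0.74 to -0.042) and did not pass the test (adjusted p = 0.131, quasi-likelihood test of edgeR, Benjamini-Hochberg adjusted). With the replicate number as a block its adjusted p was 0.0279 in the same edgeR test, at a log2 fold change of -0.40. *C1ra* had 536, 608 and 699 tags in the IL-11- libraries and 468, 638 and 587 tags in the IL-11+ libraries. Its groups overlapped, and the log2 fold change of 0.039 had a 95% interval of -0.31 to 0.38. The members of this protease pair thus had different estimates, but the difference between them was not tested.

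*C4b* and *C2* encode the parts of the classical C3 convertase. *C4b* had 704, 699 and 511 tags in the IL-11- libraries and 496, 664 and 579 tags in the IL-11+ libraries. IL-11- replicate 3 and IL-11+ replicate 1 were low and the groups overlapped throughout. The normalized level was 583.4 ± 142 CPM in IL-11- and 584.0 ± 79.2 CPM in IL-11+ fibroblasts (SD, n = 3), with a 95% interval of the log2 fold change from -0.40 to 0.40. *C2*, the zymogen that C1s cleaves and that is the classical counterpart of factor B, was far less covered. It had 34, 46 and 37 tags in the IL-11- libraries and 19, 26 and 31 tags in the IL-11+ libraries. The groups stood apart by few tags, and the log2 fold change of -0.47 (SE 0.267, 95% interval -1.03 to 0.092) did not pass the test (adjusted p = 0.281, quasi-likelihood test of edgeR, Benjamini-Hochberg adjusted). The interval of *C2* thus spans values on both sides of 0.

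Among the regulators, *Serping1* encodes the C1 inhibitor, a serpin that inactivates C1r, C1s and the proteases of the lectin pathway. It had 1927, 1805 and 1984 tags in the IL-11- libraries and 1111, 1217 and 1182 tags in the IL-11+ libraries. The groups were tight and clearly apart. The normalized level fell from 1723 ± 107 to 1180.1 ± 54.3 CPM (SD, n = 3), with a log2 fold change of -0.55 (SE 0.162, 95% interval -0.89 to -0.21, adjusted p = 0.0265, quasi-likelihood test of edgeR, Benjamini-Hochberg adjusted). The IL-11- level was 1.46-fold the IL-11+ level, which is under the fold-change threshold, so that *Serping1* was not called. In the quasi-likelihood test of edgeR, Benjamini-Hochberg adjusted, the adjusted p was 0.103, 0.101, 0.0517, 0.0789 and 0.0706 without IL-11- replicate 1, IL-11- replicate 2, IL-11+ replicate 1, IL-11+ replicate 2 and IL-11+ replicate 3, and the log2 fold change stayed between -0.60 and -0.51 when any library was left out.

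*Cd55* encodes decay-accelerating factor, a membrane protein that takes C3 convertases apart on the cell that carries it. It had 153, 291 and 292 tags in the IL-11- libraries and 143, 228 and 333 tags in the IL-11+ libraries. Replicate 1 was low in both groups, and the groups overlapped. The log2 fold change was 0.088 with a 95% interval of -0.42 to 0.60, so that no direction could be resolved for this membrane regulator.

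The 9 genes together took 0.779%, 0.844% and 0.887% of all tags in the IL-11- libraries and 0.567%, 0.749% and 0.646% in the IL-11+ libraries. The makeup of these tags differed between the groups, among others in *Cfb* and *C3*. The share of *Cfb* among these tags was 2.64%, 3.68% and 4.14% in the IL-11- libraries and 13.8%, 9.59% and 11.0% in the IL-11+ libraries. The share of *C3* was 43.8%, 46.5% and 49.4% in the IL-11- libraries and 38.2%, 43.2% and 36.3% in the IL-11+ libraries, without overlap. Set against *C3* in the same library, which needs no scaling between libraries, *Cfb* had 6.02, 7.92 and 8.38 tags per 100 *C3* tags in the IL-11- libraries and 36.1, 22.2 and 30.2 in the IL-11+ libraries. An exact two-sided permutation test over 3 against 3 libraries gave p = 0.1 for this ratio, the smallest p it can give, and 8 such ratios were computed. The ratio to *C3* also separated the groups for *C1ra*, at 14.9, 14.4 and 13.6 tags per 100 *C3* tags in the IL-11- libraries and 20.6, 19.3 and 23.9 in the IL-11+ libraries. It did so for *C4b* as well, at 19.5, 16.5 and 9.96 in the IL-11- libraries and 21.9, 20.1 and 23.6 in the IL-11+ libraries, and both gave p = 0.1 in the same exact permutation test. A separation of the ratio was thus not particular to *Cfb*. *C1ra* and *C4b* themselves overlapped between the groups, while *C3*, by which they were divided, was lower in each IL-11+ library. Their separated ratios are therefore not a difference of *C1ra* or *C4b*. The ratio of *Serping1* to *C3* was 53.4, 42.7 and 38.7 tags per 100 *C3* tags in the IL-11- libraries and 49.0, 36.8 and 48.1 in the IL-11+ libraries, which overlapped.

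The wider complement system was examined through a list of 47 other genes, of which 35 had a symbol in the libraries and 13 passed the filter. Of these 13, 3 were called lower in IL-11+ fibroblasts, where 6.37% of all tested genes were, and 6 were lower at an unadjusted p under 0.05, where 14.5% were. None was called higher by edgeR's quasi-likelihood test, by edgeR's exact test or by DESeq2, where 3.44% of all tested genes were by the first of these, and 0 were higher at an unadjusted p under 0.05, where 12.2% were. For 5 of the 13 the groups were apart, each with the IL-11- libraries above, which held for 16.7% of all tested genes, and the list had a median log2 fold change of -0.34. Of the 3 called lower, *Vtn* passed the filter only through the IL-11- libraries, where it was higher, so it could be tested only as a lower gene. With at least 10 tags required in every library, 1 of the listed genes was called lower.

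*C7*, a membrane attack component that anchors the forming complex in the lipid bilayer, had 438, 275 and 402 tags in the IL-11- libraries and 121, 135 and 62 tags in the IL-11+ libraries. It was lower in each IL-11+ library and fell by 1.64 on the log2 scale (SE 0.25, adjusted p = 0.000125, quasi-likelihood test of edgeR, Benjamini-Hochberg adjusted). *Vtn* encodes vitronectin, an adhesive glycoprotein that also keeps the attack complex from inserting into membranes. It had 31, 24 and 52 tags in the IL-11- libraries and 0, 2 and 7 tags in the IL-11+ libraries, and fell by 3.35 on the log2 scale (SE 0.535, adjusted p = 0.00017, quasi-likelihood test of edgeR, Benjamini-Hochberg adjusted). Without any single IL-11- library *Vtn* no longer had 10 tags in 3 libraries and was not tested, and its log2 fold change was -2.81, -3.14 and -4.79 without IL-11+ replicate 1, 2 and 3, so that the size of the difference rests on few tags. *Cd59a* encodes CD59, the membrane protein that stops assembly of the attack complex. It had 28, 30 and 44 tags in the IL-11- libraries and 9, 9 and 10 tags in the IL-11+ libraries, and fell by 1.68 on the log2 scale (SE 0.319, adjusted p = 0.000946, quasi-likelihood test of edgeR, Benjamini-Hochberg adjusted).

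**Figure D2:**
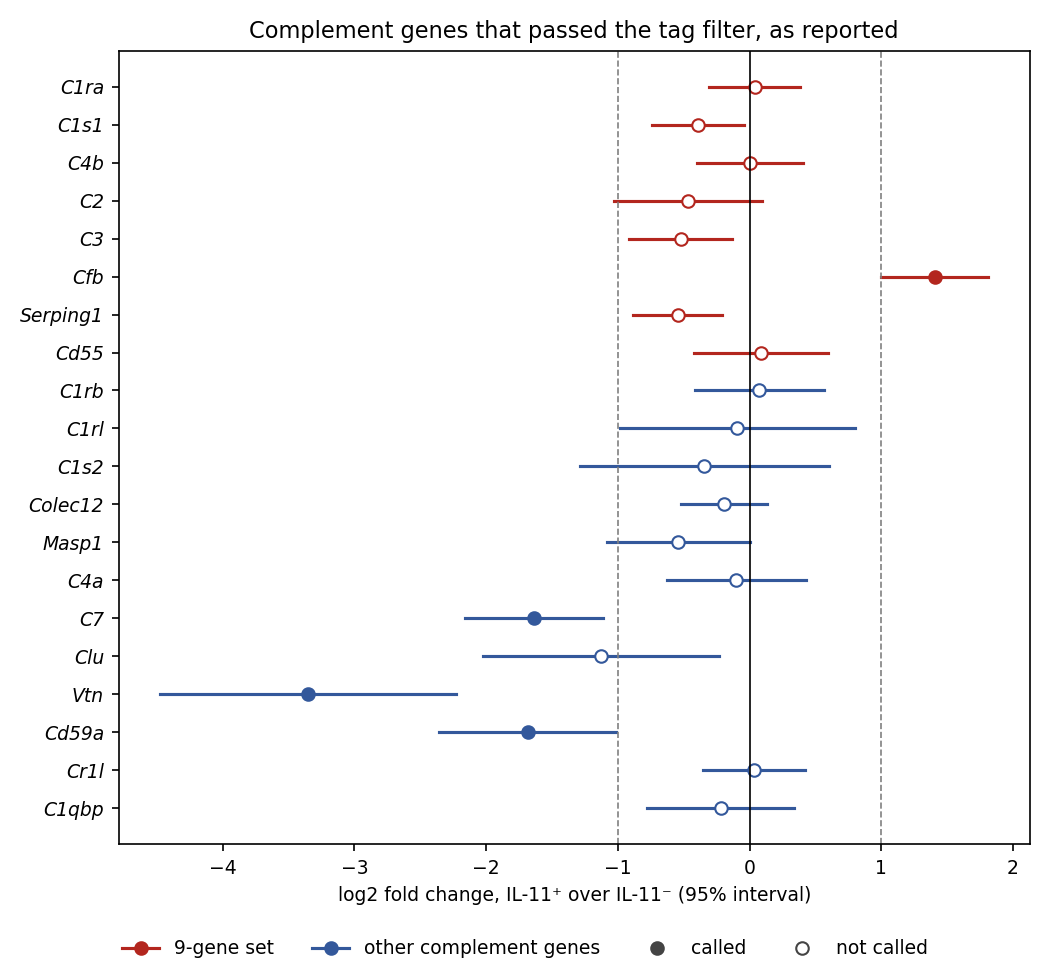
Log2 fold change (horizontal axis, IL-11+ over IL-11- fibroblasts, n = 3 libraries per group) of the 8 members in red and of other complement genes in blue that passed the filter and are reported here, with 95% intervals as lines, called genes as filled circles and dashed lines at a fold change of 2. *Cfb* at 1.40 was the only called gene drawn to the right of 0, and *C7*, *Vtn* and *Cd59a* were called to the left.

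*Clu* encodes clusterin, a chaperone that binds the soluble attack complex. It had 32, 30 and 13 tags in the IL-11- libraries and 6, 15 and 10 tags in the IL-11+ libraries (adjusted p = 0.0839, quasi-likelihood test of edgeR, Benjamini-Hochberg adjusted). IL-11- replicate 3 was as low as the IL-11+ libraries. *Clu* was called lower in a fit blocked on the replicate number, at a log2 fold change of -1.10 (adjusted p = 0.0298, quasi-likelihood test of edgeR, Benjamini-Hochberg adjusted). It was also called in the same edgeR test without a filter (-1.09, adjusted p = 0.0406) and without IL-11- replicate 3 (-1.51, adjusted p = 0.0118), and the adjusted p went up to 0.297 when another library was left out.

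At the start of the pathways, *Masp1*, a protease of the lectin pathway, and *Colec12*, a membrane collectin, did not overlap between the groups and were not called, with log2 fold changes of -0.54 and -0.19. The close relatives *C1rb*, *C1s2* and *C4a* had log2 fold changes of 0.074, -0.34 and -0.10, and *C1rl*, a C1r-like protease, of -0.092, none of them called. *Cr1l*, which encodes Crry, the convertase inhibitor of mouse cell membranes, had 76, 94 and 126 tags in the IL-11- libraries and 89, 96 and 84 tags in the IL-11+ libraries. Its groups overlapped, as did those of *Cd55*, while the membrane inhibitor of the terminal stage, *Cd59a*, differed. *C1qbp*, a mitochondrial protein that can bind C1q, had a log2 fold change of -0.22.

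The other 22 listed genes with a symbol in the libraries did not pass the filter. *C1qa*, *C1qb* and *C1qc*, which encode the recognition subunit of C1 and are known from macrophages, had at most 8 tags in any library. *C6* had 14, 3 and 0 tags in the IL-11- libraries and 11, 8 and 7 tags in the IL-11+ libraries, and *Cd46* had 8 tags in each IL-11- library and 3, 3 and 12 tags in the IL-11+ libraries. *C5ar1*, the receptor of the anaphylatoxin C5a, had 0, 1 and 1 tags in the IL-11- libraries and 2, 7 and 3 tags in the IL-11+ libraries. *Hc*, which encodes C5, had 1 tag in all, so differences at the C5 stage were not detectable at this depth.

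Markers were used to check what the sorted cells were. All 9 fibroblast markers passed the filter, and 2 of them, *Col3a1* and *Pdpn*, were called higher in IL-11+ fibroblasts. *Lum*, which encodes the matrix proteoglycan lumican, went the other way, at a log2 fold change of -0.64 that is under the fold-change threshold (adjusted p = 0.0378, quasi-likelihood test of edgeR, Benjamini-Hochberg adjusted). *Vim*, which encodes vimentin, also had a negative log2 fold change, of -0.27, with overlap between the groups and no call. The sum of the list, with *Dcn* the most abundant, stood at 22122, 22107 and 24635 CPM in the IL-11- libraries and at 42227, 33957 and 30313 CPM in the IL-11+ libraries. Both groups therefore carried the RNA of fibroblasts, with higher sums in the IL-11+ libraries. Defining markers of leukocytes, epithelium and endothelium, which the gate was to remove, were at or near 0. *Ptprc*, which encodes CD45, had 1, 2 and 7 tags in the IL-11- libraries and 0, 3 and 0 tags in the IL-11+ libraries, *Epcam* had at most 1 tag, and *Pecam1*, which encodes CD31, had 1 tag in all.

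Of 8 leukocyte and macrophage markers, 1 passed the filter, *Cd14*, which was called higher in IL-11+ fibroblasts at a log2 fold change of 2.22. *Cd14*, a receptor subunit for bacterial lipopolysaccharide, had 10, 4 and 5 tags in the IL-11- libraries and 36, 31 and 13 tags in the IL-11+ libraries, whereas *Lyz2*, the macrophage lysozyme, had 5, 8 and 2 tags in the IL-11- libraries and 4, 0 and 0 tags in the IL-11+ libraries. *Ptprc*, *Tyrobp* and *Itgam* also had lower mean values in IL-11+ fibroblasts. Means of *Cd68* and *Csf1r* were higher there, at 6.45 against 5.22 CPM and at 1.33 against 0.95 CPM, with overlap between the groups. The list summed to 29.6, 21.7 and 19.7 CPM in the IL-11- libraries and to 53.0, 45.7 and 18.1 CPM in the IL-11+ libraries, and the excess in replicates 1 and 2 lay in *Cd14*. Endothelial markers, led by *Kdr*, summed to at most 4.77 CPM, and none of the 5 passed the filter.

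Smooth muscle genes and some pericyte genes were higher in the IL-11- libraries, alongside *Serping1*, *C7*, *Vtn* and *Cd59a*. All 5 smooth muscle markers were called lower in IL-11+ fibroblasts, and their sum, led by *Myh11*, stood at 1276, 1437 and 1806 CPM in the IL-11- libraries and at 48.8, 71.1 and 154 CPM in the IL-11+ libraries. Of 5 pericyte markers, 3 (*Rgs5*, *Cspg4* and *Notch3*) were called lower. The others, *Kcnj8* and *Abcc9*, were higher in IL-11+ fibroblasts at log2 fold changes of 0.71 and 0.66, under the fold-change threshold (adjusted p = 0.0394 and 0.0167, quasi-likelihood test of edgeR, Benjamini-Hochberg adjusted). The pericyte list thus did not move as a whole. Its sum, of which *Rgs5* was the largest part in the IL-11- libraries and *Abcc9* in the IL-11+ libraries, stood at 2445, 2086 and 1892 CPM in the IL-11- libraries and at 935.9, 782.8 and 688.5 CPM in the IL-11+ libraries. The IL-11- group thus held more RNA of contractile cells. The part of these cells in the differences of the complement genes was not tested.

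Of 7 epithelial markers, *Lgals4* alone passed and was called lower, and the list summed to 30.6, 23.6 and 45.2 CPM in the IL-11- libraries and to 9.54, 11.2 and 21.0 CPM in the IL-11+ libraries. None of the 6 mesothelial markers passed. Their sum, led by *Wt1*, was 15.3, 6.60 and 23.8 CPM in the IL-11- libraries and 1.06, 0 and 1.91 CPM in the IL-11+ libraries. Genes of red cells, which the gate was to remove by Ter119, were present nonetheless. Led by *Hbb-bs*, their sum varied most between replicates, at 90.7, 0 and 304.6 CPM in the IL-11- libraries and 18.0, 2.03 and 19.1 CPM in the IL-11+ libraries, and none of the 4 passed. Apart from the red cell genes, these lists thus took few tags in any library.

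Several members are neighbors in the genome (GRCm38, GENCODE annotation). *Cfb* (chr17:34856374-34862518, minus strand, 18 exons) and *C2* (chr17:34862604-34898265, minus strand, 18 exons) lie 85 bases apart in the class III region of the major histocompatibility complex. *C4b* (chr17:34728380-34743882, minus strand) lies on the same strand, 112491 bases from *Cfb*. Of these neighbors, *Cfb* was called higher in IL-11+ fibroblasts and *C4b* overlapped between the groups. The log2 fold change of *C2* was negative but did not pass the test, with a 95% interval of -1.03 to 0.092, so no direction was resolved for it. *C3* (chr17:57203970-57228136, minus strand, 41 exons) is elsewhere on that chromosome. *C1ra* (chr6:124512405-124523443, plus strand) and *C1s1* (chr6:124530345-124542359, minus strand) point toward each other with 6901 bases between them. The remaining members are single genes at *Cfd* (chr10:79890853-79892655, plus strand), *Serping1* (chr2:84765387-84775444, minus strand) and *Cd55* (chr1:130439027-130462744, minus strand).

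Tags from the 5′ side of transcripts can fit more than 1 gene where starts are alike. Of the 50-nt windows in the first 300 nt of the annotated transcripts, 44.6% of those of *C4b* also occurred in *C4a*, and 23.5% of those of *Cd55* in *Cd55b*. For *C2* and *Cfb*, 71.4% and 61.6% of the windows also occurred in *Gm20547*. This readthrough gene overlaps both and has no entry of its own among the symbols counted here. How tags from such windows were assigned is not known here, so the values of these genes carry that uncertainty, and *C4a* itself had at most 35 tags in any library. No window of *C1ra*, *C1s1*, *C3*, *Cfd* or *Serping1* was shared with another gene. Adding the tags of close relatives to those of the members, among them *C4a* to *C4b* and *Cd55b* to *Cd55*, left the calls of the members as they were.

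The tested genes whose profiles over the 6 libraries were closest to each member were found by the root-mean-square distance between log2 CPM profiles, each centered on its mean. *Cfb* was closest to *Cyp51*, an enzyme of cholesterol synthesis, at a distance of 0.0812, and to *Pafah1b3* at 0.115. The log2 fold changes of these genes were 1.47 and 1.24. *C3* was closest to *Dlc1* and *Dele1*, *Serping1* to *Plekhm2* and *Ddit3*, and *C1s1* to *Macf1* and *Nfic*, at distances of 0.0328 to 0.0596. *C1ra* was closest to *Psmd12* and *Slc4a2*, *C4b* to *Alkbh5* and *Tmem184c*, *C2* to *Utp23* and *Ccdc85b*, and *Cd55* to *Fuom* and *Dhdds*. None of these 16 genes is a complement gene of either list.

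Upstream sequences were taken for the 5 of 9 members found in the RefSeq promoter table (GRCm38.p6), as the 250 bases before the annotated start. The members without a window there were *C2*, *C4b*, *Cfb* and *Serping1*. *C3* and *C1s1* are shown because both were lower in each IL-11+ library and C3 is the central component. Capitals mark matches, on either strand, to a kappaB-like pattern, GGG and CC separated by 5 bases, with overlapping matches run together. The window of *C3* is chr17:57228137-57228386 and that of *C1s1* is chr6:124542360-124542609, both read on the minus strand.
C1s1: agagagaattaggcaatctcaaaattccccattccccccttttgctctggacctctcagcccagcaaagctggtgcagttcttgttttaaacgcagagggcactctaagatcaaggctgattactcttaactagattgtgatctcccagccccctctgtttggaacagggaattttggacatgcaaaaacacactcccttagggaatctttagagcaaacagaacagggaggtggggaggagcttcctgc
C3: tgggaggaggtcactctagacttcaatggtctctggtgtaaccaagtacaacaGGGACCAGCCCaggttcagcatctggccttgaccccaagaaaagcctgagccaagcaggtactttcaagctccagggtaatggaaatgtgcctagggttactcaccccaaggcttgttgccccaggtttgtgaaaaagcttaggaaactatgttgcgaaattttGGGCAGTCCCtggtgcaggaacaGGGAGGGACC
The *C3* window held 4 such matches and this *C1s1* window held 0. A second, overlapping *C1s1* window, for a start at another position and not shown, held 1, and the windows of *Cd55*, *Cfd* and *C1ra* held 4, 1 and 0, while 45.8% of 32851 promoter windows of the same length held at least 1. The STAT-like pattern, TTC and GAA separated by 3 bases, was found in no window of a member and in 7.02% of all windows. The ISRE-like pattern, GAAA repeated after a gap of 2 bases, was also found in none, and in 2.98% of all windows. A match is a description of the letters and not a bound site.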

How the data were processed

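Per the methods and processing notes, the authors trimmed reads with cutadapt 1.18, mapped them with Bowtie2 2.2.5 to RefSeq RNA of mm10 in a single orientation, counted tags per gene and deposited these counts without normalization. How tags that fit several genes were counted is not given in the sources used here. Genes that reached 10 tags in 3 or more of 6 libraries were tested in R 4.3.3 with edgeR 4.0.16 (TMM, glmQLFit and glmQLFTest, Benjamini-Hochberg adjustment over 9334 genes) and called when they differed more than 2-fold with an adjusted p under 0.05, the thresholds of the methods. The methods as printed exclude genes with 10 or more tags, which was read as keeping them. Standard errors are the coefficient divided by the root of F. The fit was tested on simulated data.

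The members and lists were chosen with earlier results of these data known, and the adipocyte list was added after values were seen. Named are all members, called genes of the complement list with its regulators and receptors, markers, *Il11* and the closest profiles. Some genes of these lists are in the counts and sums but are not reported here.

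Same-numbered libraries deviated together from their group means (r of 0.232, 0.220 and 0.270 across 5064 genes averaging 30 or more tags, which are not independent), so the numbers were taken to pair the libraries, and a fit with the number as a block was an alternative. Others were RLE, library size only, iterative TMM, DESeq2 1.42.0, edgeR's exact test, other filters, summed paralog tags, the adjusted p alone and each library left out. Positions come from GENCODE vM21. The set of protein sequences and a C/EBP-like pattern were not used here.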

Additional observations from a re-analysis of the deposited data

How the results depend on the processing

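*Cfb* kept its call in all 16 alternatives that refit the data, with log2 fold changes from 1.19 to 1.55 and adjusted p from 3.68e-13 to 0.00107 (edgeR or DESeq2, Benjamini-Hochberg adjustment). *Serping1*, *C3*, *C1s1* and *C2* kept their direction in all 16, and their adjusted p was under 0.05 in 10, 3, 1 and 0 of them. The members called lower went from 0 to 1 without a filter, by *Cfd* (adjusted p = 3.06e-07, edgeR), which rests on IL-11- replicates 1 and 2, and to 1 by the adjusted p alone, by *Serping1*. The other complement genes called lower went from 3 to 1 with at least 10 tags in every library, which *Vtn* and *Cd59a* do not have. With the replicate block, which pairs the libraries, *Cfb* was at 1.42 and *Serping1* at -0.55, and besides *Clu* no call of a complement gene changed. Of all tested genes, 638 were higher by the adjusted p alone, and 256 were lower with at least 10 tags in every library and 341 to 579 when a library was left out, 341 and 355 of them without IL-11- replicates 1 and 2.

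Log2 fold changes near 0 changed sign, and the cause was not tested. With library size only, which shifted the median of all genes to -0.095, *C1ra* was at -0.041, *C4b* at -0.071, *C1rb* at -0.00041 and *Cr1l* at -0.053. With at least 10 tags in every library, *C1ra* was at -0.0021, *C4b* at -0.038 and *Cr1l* at -0.0075. *C4b* was at -0.0091 with iterative TMM, -0.024 with at least 20 tags in 3 libraries and -0.0027 with *C4a* tags added. When a library was left out, values ranged from -0.059 to 0.14 for *C1ra*, from -0.21 to 0.097 for *C4b*, from -0.20 to 0.33 for *Cd55*, from -0.054 to 0.28 for *C1rb*, from -0.42 to 0.25 for *C1rl*, from -0.87 to 0.052 for *C1s2* and from -0.11 to 0.15 for *Cr1l*.

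With this depth and 3 libraries per group, genes such as *C2* and *Clu* rest on few tags, and *Cfd*, *Hc* and the counted receptors other than *C1qbp* were too low to be tested.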
